A study of Mus musculus with 6 samples.

Results

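The dystrophin-glycoprotein complex was followed here through 8 of its genes in cultured muscle cells at 2 stages, dividing myoblasts and fused myotubes. The genes were DMD (dystrophin), DAG1 (dystroglycan), SGCA, SGCB and SGCD (α-, β- and δ-sarcoglycan), SNTB1 and SNTB2 (β1- and β2-syntrophin) and DTNA (α-dystrobrevin). Members were all HG-U133A probe sets whose single annotated symbol was one of these, which gave 19 probe sets of 6 genes, out of 11963 genes and 22215 probe sets without controls. SGCA had 1, SGCB 2, DMD and SNTB1 3 each, SNTB2 4 and DTNA 6. DAG1 and SGCD had no probe set under this rule and were not analysed here.

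Total RNA of the C2C12 line had been labelled with biotin and hybridised to 6 arrays, 3 of myoblasts and 3 of myotubes. C2C12 is an established mouse line that is grown as single myoblasts and fuses into myotubes when serum is lowered. The labels give 2.5% horse serum for the myotubes and no medium or time for either stage, and they name no genetic change or drug in either group. Probes on this array match human transcripts, while mouse is the labelled organism. Which species the RNA came from was not settled here, and genes carry their human symbols. For myoblast array 3 the stage came from the description, since the title names none. That description gives a range of numbers that leaves out 3, so whether this array is a separate replicate was not settled. No label states that replicate arrays stand for separate cultures. The p-values therefore cover the spread among these arrays alone, and that spread may be technical.

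In a muscle fibre, dystrophin binds actin filaments under the membrane at one end and dystroglycan in the membrane at the other. Dystroglycan carries sugar chains that hold laminin in the basement membrane, and the sarcoglycans form a membrane subcomplex beside it. Syntrophins and dystrobrevin sit on the inner side, where they dock signalling proteins such as nitric oxide synthase. Loss of dystrophin or of a sarcoglycan causes muscular dystrophy in people.

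The values are signals, 1 per probe set and array on a linear scale, and signals of different probe sets cannot be set against each other. The highest signal of an unspiked bacterial control on each array, 252 to 1040, was taken as the level below which a signal is not told from background; by array it was 920, 326 and 252 for myoblasts 1 to 3 and 731, 1040 and 520 for myotubes 1 to 3. Myoblast arrays 2 and 3 were closely alike (Pearson's r of log2 values 0.988 across probe sets, against 0.831 to 0.924 for all other pairs). The other arrays did not group by stage. Myotube array 3 was more like myoblast arrays 2 and 3 (0.920 and 0.924) than myotube arrays 1 and 2 (0.902 and 0.908). Myoblast array 1 was about as like myotube array 3 (0.909) as myoblast arrays 2 and 3 (0.908 and 0.912). All myotube arrays shared a chip lot and a scan day that held no myoblast array, so neither can be told apart from stage. By their laboratory codes, myoblast array 1 and the myotube arrays formed one series and myoblast arrays 2 and 3 another, a grouping the records do not name. The geometric mean of the spiked-in controls was 48119, 3539 and 4275 on myoblast arrays 1 to 3. It was 71439, 33504 and 12320 on myotube arrays 1 to 3. Median signals were 665, 518 and 542 in myoblasts and 747, 789 and 641 in myotubes. The bearing of these differences on the changes was not tested. The stage labels were checked against marker genes. Of 18 myotube markers 14 were tested, 11 were called higher in myotubes and none lower, against 5.39% and 6.73% of all tested genes. MYH2, MYOG, CKM and TNNI2 did not exceed the control on any array. Of those called, MYH3 (embryonic myosin), TNNI1, TNNC1, MYL1, ACTA1, MYBPH, TNNT1 and CASQ2 had myoblast means below 474, the filter level given below. These were tested only because their myotube signals were high, so a fall could hardly have been called for them. Myoblast array 1 read higher than myoblast arrays 2 and 3 for every listed myotube marker but MYH7, many of these signals being below its control. ACTC1 read 6232 against 1986 and 1872, MYL1 979 against 120 and 262, and MYH7 115 against 336 and 232. Why this array differs was not tested. Of 11 myoblast markers ID1 and ID3 were called lower in myotubes, and MYF5 and PAX7 did not exceed the control on any array. The other 4 tested myoblast markers had positive changes that did not pass, among them CDH15 (0.80, limma adjusted p = 0.0856), and CDH15 and the untested PAX3 read higher on all myotube than on all myoblast arrays. Most fibroblast markers moved too. Of 12 on the array 11 were tested and 9 called higher in myotubes, against 5.39% of all tested genes. PDGFRA changed the other way (-0.30, limma adjusted p = 0.584) with overlapping groups, and TCF21 did not exceed the control on any array. The summed signal of the 12 was 132091 to 301023 in myoblasts and 428326 to 645508 in myotubes. That sum is led by COL1A1 and COL1A2 (myotube means 183113 and 193969), so it is no measure of the list as a whole.

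Among the 19 probe sets of the complex, 1 rose in myotubes and none fell. That probe set, of the syntrophin gene SNTB1, rose 2.65-fold. Dystrophin, β-sarcoglycan, β2-syntrophin and α-dystrobrevin did not pass the test, and the only SGCA probe set was too dim to be tested. Of the 19, 10 had a mean signal over the 6 arrays of at least 474, the 40th percentile of all non-control probe sets, and were tested with limma on log2(signal + 197). The share called was 1 of 10, against 11.3% of all 13329 probe sets tested, of which 4.93% rose and 6.4% fell. By gene it was 1 of 5, against 12.1% of 8161 tested genes. In 5 of the 10, of SNTB1, SNTB2, DMD and DTNA, the myoblast mean lay below the filter level, so these were tested only because their myotube signals were high. At an unadjusted p under 0.05 there were 4 of 10, against 30.1% of all tested probe sets. The 3 myotube signals all lay above the 3 myoblast signals in 4 of 10, against 17.5% of all tested probe sets, and in 6 of all 19, against 17.1% of all probe sets. Both counts of 4 include SNTB1 208608_s_at and DTNA 208430_s_at, tested only through their myotube signals. The same holds for SNTB2 213814_s_at in the first count and DMD 203881_s_at in the second. Neither count is thus independent of the filter. The DMD and SGCA probe sets added among the 19 did not exceed the control on any array. These shares rest on few probe sets, several of which share a gene.

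**Figure D1:**
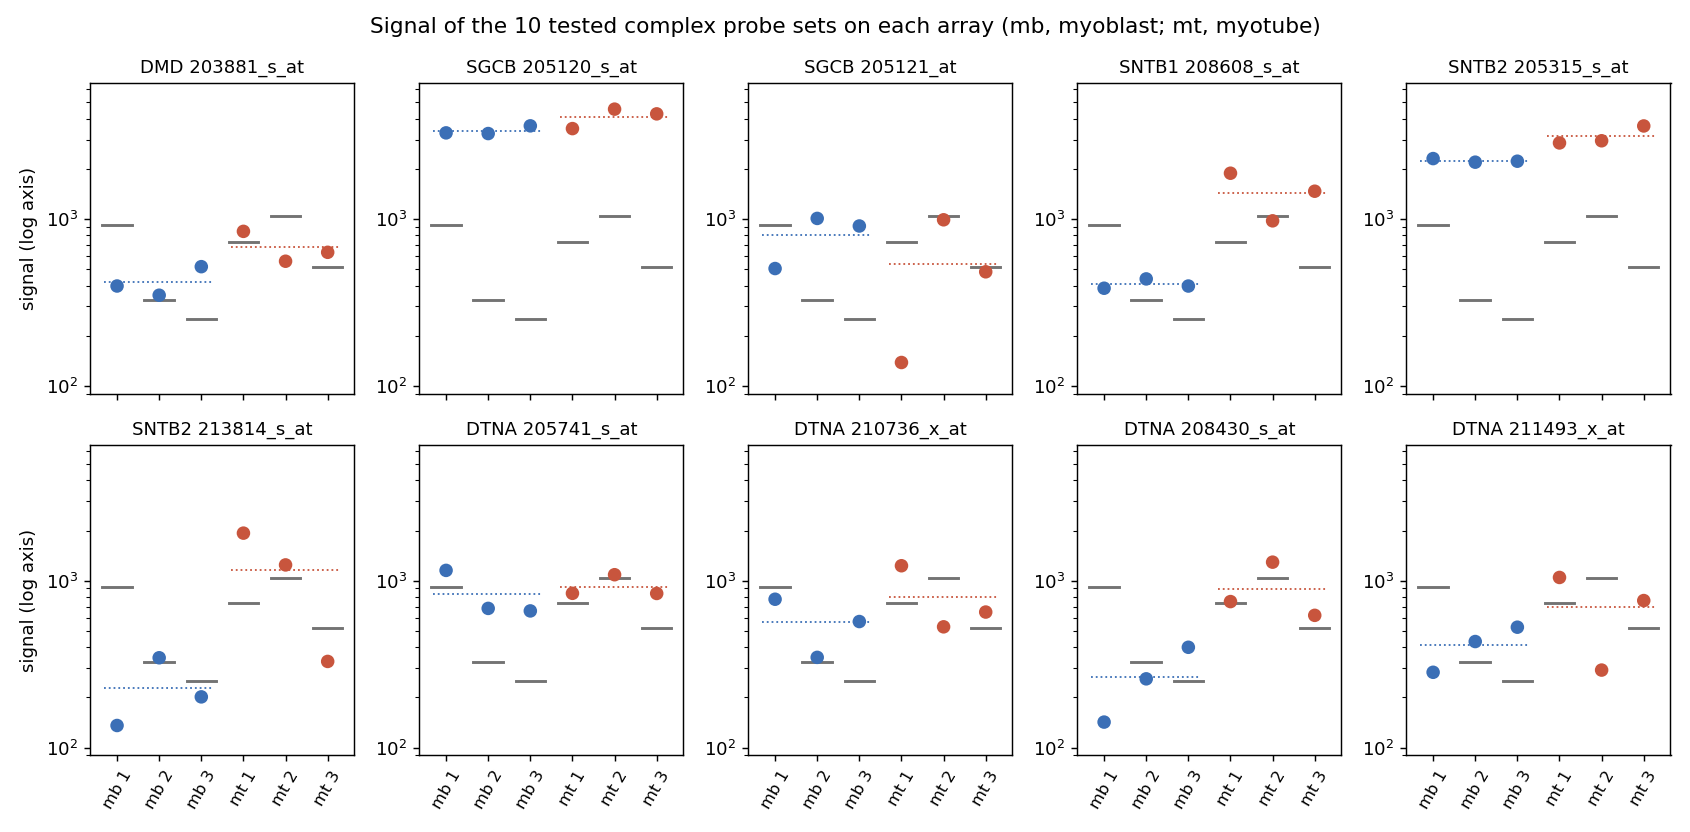
Signal (log axis) of the 10 tested probe sets of the complex on each of 3 myoblast arrays (mb, blue) and 3 myotube arrays (mt, red); dotted lines are group means and grey bars the highest unspiked control of each array. SGCB 205120_s_at and SNTB2 205315_s_at lie above the control on all arrays, and the SNTB1 myotube signals of 977 to 1884.5 all lie above its myoblast signals of 386 to 439.

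Dystrophin itself was represented by 3 probe sets. The brightest, 203881_s_at, gave signals of 398, 350 and 519 on the myoblast arrays and 845, 560 and 633 on the myotube arrays. The groups did not overlap, although the gap between 519 and 560 was small beside the spread within either group. The log2 change was 0.50 ± 0.36 SE (95% interval -0.30 to 1.29, limma adjusted p = 0.369), and the signal was above the control on 2 of 3 arrays of each stage. A second probe set, 208086_s_at, gave 137, 170 and 202 in myoblasts and 284, 1036 and 333 in myotubes. All 3 myotube signals were higher, but none of the 6 exceeded the control of its array, so this difference was not measurable above background. The third, 207660_at, gave 522, 342 and 270 in myoblasts and 279, 112 and 558 in myotubes, with overlapping groups. Dystrophin is made from several promoters, and which of its transcripts each probe set detects was not examined.

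Of the sarcoglycans, which stabilise the link through dystroglycan, SGCB gave the firmest measurement. Its probe set 205120_s_at read 3288, 3257 and 3622 in myoblasts and 3487, 4561 and 4273 in myotubes, above the control on all 6 arrays. Myotube array 1 lay within the myoblast range, and the change was 0.26 ± 0.18 (95% interval -0.15 to 0.66, adjusted p = 0.36). A rise larger than 0.66 on this scale therefore lies outside the interval. The dimmer probe set 205121_at of the same gene read 506, 1010 and 910 in myoblasts and 139, 991 and 484 in myotubes. It exceeded the control on myoblast arrays 2 and 3 only and on no myotube array. Its change was -0.60 ± 0.49 (limma adjusted p = 0.423). The 2 probe sets thus had changes of opposite sign and neither passed. Their mean changed by -0.17 ± 0.29 and rests in part on signals not told from background. SGCA, whose product is found in striated muscle, read 28.8, 11.8 and 10.5 in myoblasts and 108, 216 and 40.6 in myotubes. All 3 myotube signals were higher, but each of the 6 lay below the control of its array, so no level can be given for SGCA at either stage.

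β1-syntrophin, an adaptor that binds dystrophin and dystrobrevin, accounted for the only call. SNTB1 208608_s_at read 386, 439 and 398 in myoblasts and 1884.5, 977 and 1470 in myotubes. The myoblast arrays lay close together, the myotube arrays lay further apart, and the groups did not overlap. The change was 1.40 ± 0.33 on the log2 scale (95% interval 0.67 to 2.13, limma adjusted p = 0.0235). Signals were above the control on 2 of 3 arrays of each stage, the exceptions being myoblast array 1 and myotube array 2, so the size of the change depends on the pseudocount. The change was 1.66 with a pseudocount of 50 and 0.96 with one at the median signal. The call was lost without myoblast array 2 or 3 or myotube array 1 or 3, where limma adjusted p-values were 0.08, 0.0963, 0.0912 and 0.052 and changes ran from 1.21 to 1.44. It was kept without myoblast array 1 (1.38, adjusted p = 0.0175) or myotube array 2. With the laboratory series as a block, which leaves myoblast array 1 to be compared with the 3 myotube arrays, the change was 1.45 (adjusted p = 0.126), in a fit that called 2.54% of all tested probe sets. The sign was positive in all 19 other settings in which this probe set was tested, and it was called in 9 of them.

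**Figure D2:**
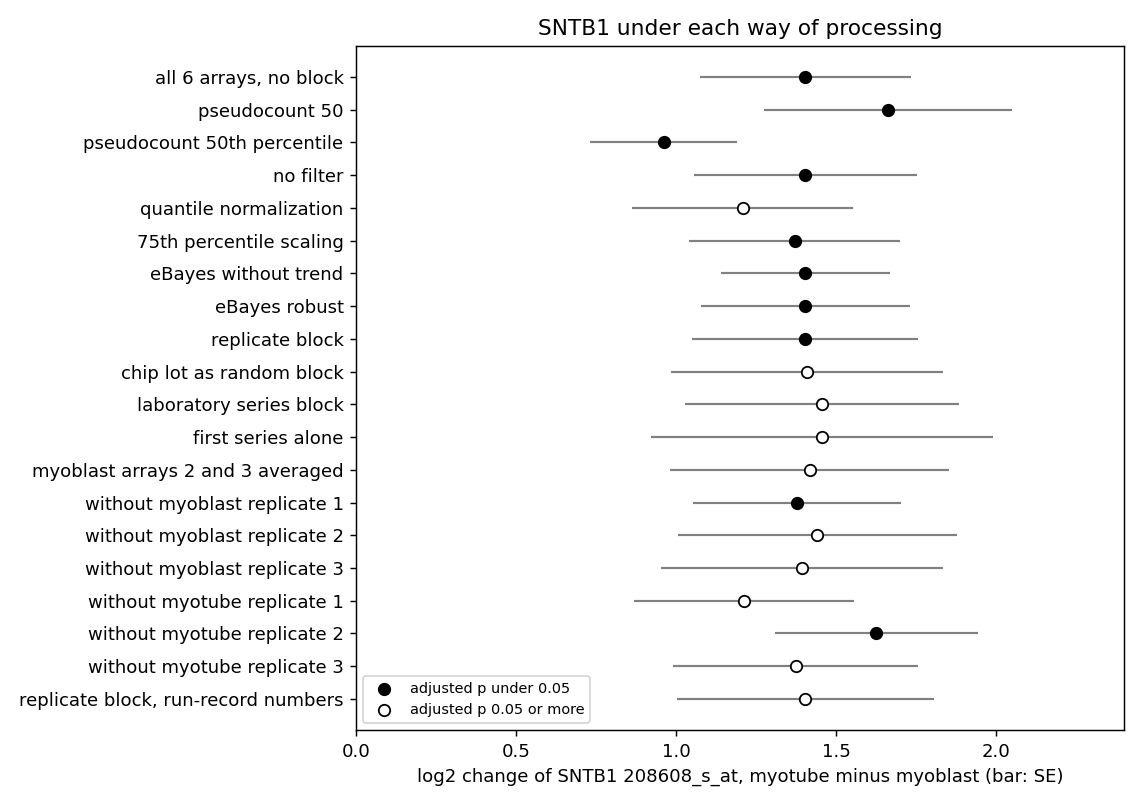
Log2 change of SNTB1 208608_s_at from myoblasts to myotubes under each way of processing (points; bars are SE); filled points passed an adjusted p of 0.05 and open points did not. All changes lie between 0.96 and 1.66, and the filled points are the main setting and 9 of 19 others.

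The other SNTB1 probe sets were too dim to be tested. Probe set 214708_at read 376, 192 and 285 in myoblasts and 257, 483 and 163 in myotubes, and exceeded the control on 1 of the 6 arrays. Probe set 215431_at read 41.8 to 134 in myoblasts and 49.7 to 117 in myotubes, below the control throughout. The called probe set was thus the only one of the 3 measured above background at both stages.

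β2-syntrophin, the other β-type adaptor, was bright and precise in 1 of its 4 probe sets. SNTB2 205315_s_at read 2306, 2195 and 2224 in myoblasts and 2862, 2948 and 3617 in myotubes, above the control on all arrays. The groups did not overlap, and the 3 myoblast signals were close together. The change was 0.45 ± 0.19 (95% interval 0.02 to 0.87, unadjusted p = 0.0405, limma adjusted p = 0.148), which did not pass. Its second tested probe set, 213814_s_at, read 136, 346 and 202 in myoblasts and 1930, 1245 and 329 in myotubes. Myotube arrays 1 and 2 were high, and myotube array 3 lay within the myoblast range and below its control. The change was 1.49 ± 0.53 (adjusted p = 0.0924), and without myotube array 3 it was 2.07 and called (limma adjusted p = 0.0207). Over the mean of both tested probe sets SNTB2 changed by 0.97 ± 0.27, with a limma adjusted p of 0.0429 in a fit of gene means. That mean rests in part on 213814_s_at, which was tested only because of its myotube signals, and leaves out the probe sets below the filter level. The remaining 2 probe sets, 214350_at and 205314_x_at, did not exceed the control on any array.

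The 2 β-syntrophin genes were compared by the log2 distance between their brightest tested probe sets within each array. SNTB1 was already known to be called when this comparison was chosen, so the comparison is not independent of that call. It was -2.10, -1.91 and -2.03 in myoblasts and -0.56, -1.42 and -1.19 in myotubes. The distance itself has no meaning, since it sets 2 probe sets against each other, but its shift of 0.96 between stages is the SNTB1 change minus the SNTB2 change. The 3 myotube arrays all lay above the 3 myoblast arrays. The exact permutation p was 0.1 (two-sided), the smallest that 3 arrays against 3 allow, so this design cannot show a difference between the paralogs at a threshold of 0.05. The SNTB1 probe set was also tested only because of its myotube signals. With the mean of each gene's tested probe sets the shift was 0.43 (exact permutation p = 0.4).

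α-Dystrobrevin, a relative of dystrophin that binds syntrophins, had 6 probe sets, of which 4 were tested and none passed. DTNA 208430_s_at read 142, 259 and 400 in myoblasts and 751, 1293 and 621 in myotubes. Its groups did not overlap, all 3 myotube signals and 1 of 3 myoblast signals were above the control, and the change was 1.22 ± 0.42 (95% interval 0.29 to 2.14, adjusted p = 0.0846). The brightest, 205741_s_at, read 1154, 683 and 660 in myoblasts and 841, 1087 and 840 in myotubes. Myoblast array 1 was the highest of all 6, and the change was 0.15 ± 0.32 (95% interval -0.56 to 0.85, adjusted p = 0.771). This probe set was above the control on all 6 arrays. Its sign turned with the laboratory series as a block (-0.28) and with quantile normalization (-0.075).

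The other tested DTNA probe sets, 210736_x_at and 211493_x_at, had overlapping groups and changes of 0.37 ± 0.40 and 0.47 ± 0.44 (adjusted p = 0.544 and 0.487). The first turned to -0.022 with the series block. Among the untested, 210611_s_at read 29.6, 122 and 178 in myoblasts and 22.5, 1044 and 313 in myotubes, where only myotube array 2 exceeded its control. Probe set 210091_s_at stayed below the control on every array. The 4 tested DTNA probe sets thus spanned changes of 0.15 to 1.22, with a mean of 0.55 ± 0.31, and which transcripts they detect was not examined.

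**Figure D3:**
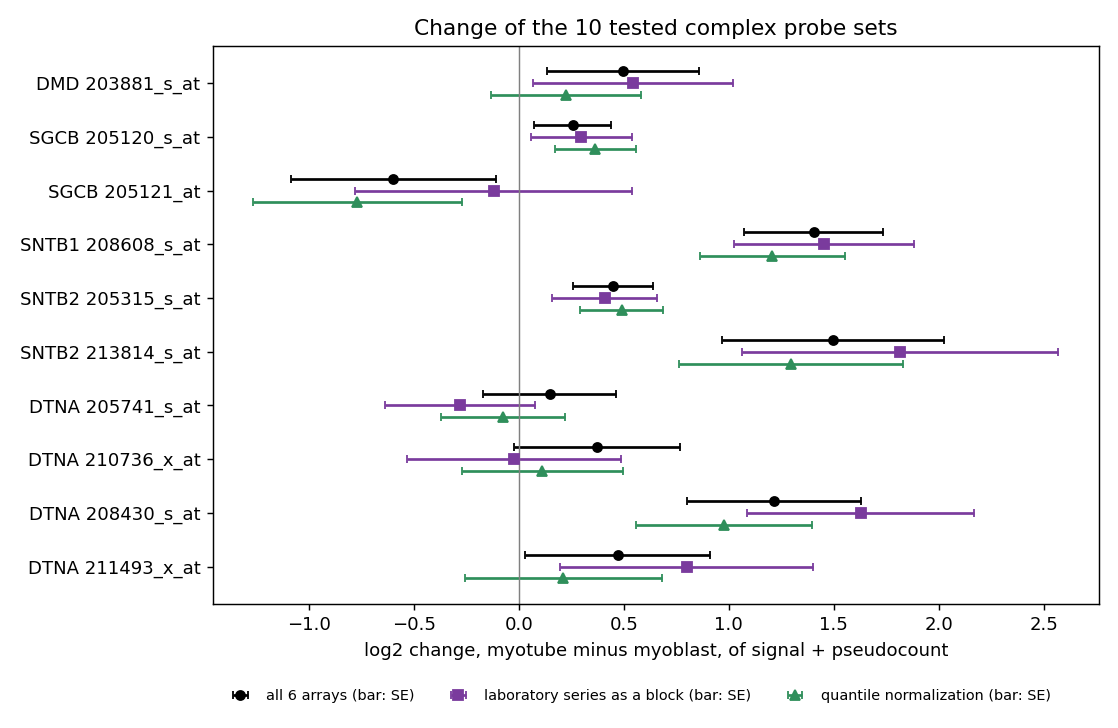
Log2 change from myoblasts to myotubes of the 10 tested probe sets of the complex, with all arrays (circles), with the laboratory series as a block (squares) and after quantile normalization (triangles); bars are SE. The SNTB1, SNTB2 and DTNA 208430_s_at changes stay positive in all 3, while DTNA 205741_s_at lies at 0.15, -0.28 and -0.075.

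Dim genes had the more positive median changes on these arrays, and 9 of the 19 member probe sets lay below the filter level. The median change was 0.36 over the 2040 dimmest tested genes and 0.20 over the next 2040. It was -0.18 over 1632 bright genes and 0.11 over the 409 brightest. Over all 19 members without a filter 16 changes were positive and 3 negative, with a median of 0.45, while 63.3% of all probe sets were positive with a median of 0.19. For the 10 tested members the median was 0.46 and, after quantile normalization, 0.30, against 0.09 and 0.00 for all tested probe sets. What part of the members' positive changes goes with this trend was not tested. The spiked-in control and median signals given above also differed between arrays, and their link to the trend was not tested.

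Related genes, from a list of further complex members and partners, did not pass the test. Of 15 listed genes 12 were on the array and 8 were tested, of which 0 were called by limma, with 4 at an unadjusted p under 0.05, against 31.6% of all tested genes, all higher in myotubes. In 4 of the 8 all myotube signals lay above all myoblast signals, against 18.5% of all tested genes. The median change was 0.52, against 0.12 for all tested genes. SGCE (ε-sarcoglycan, a widely expressed relative of SGCA) read 1288, 1387 and 1582 in myoblasts and 1812, 2583 and 2776 in myotubes. Its groups did not overlap, and the change was 0.66 ± 0.24 (adjusted p = 0.0935). MAST2, a kinase that binds syntrophins, had a change of 0.82 ± 0.29 (adjusted p = 0.0911) with overlapping groups. Its probe set 215903_s_at changed by 0.84 (limma adjusted p = 0.0745) without overlap, and 215660_s_at by 0.65 with overlap. UTRN (utrophin, the dystrophin paralog that can stand in for it at the membrane) read 1294, 1481 and 1238 in myoblasts and 1328, 1503 and 1168 in myotubes. The 2 stages covered nearly the same range, with a change of -0.01 ± 0.24 (adjusted p = 0.988). NOS1 (the nitric oxide synthase that syntrophins anchor), CAV3 (caveolin 3 of the muscle membrane) and SSPN (sarcospan) had non-overlapping groups and changes of 0.80, 0.72 and 0.38, none of which passed (adjusted p = 0.125, 0.145 and 0.372). The other probe sets of NOS1 (207310_s_at) and SSPN (204963_at) were untested, had overlapping groups and changed by -0.56 and 0.08 without a filter. Without myoblast array 1 the list had 3 called genes, MAST2 among them (1.09, limma adjusted p = 0.0151), in a fit that called 27.1% of all tested genes.

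Genes linked to the laminin-binding sugar chain of dystroglycan, general suppliers of sugar donors among them, showed no call either. Of 21 listed genes 11 were tested and 0 were called by limma, with 4 at an unadjusted p under 0.05, 3 higher and 1 lower in myotubes. Over all tested genes these shares were 12.1% and 31.6%. The median change was 0.14. B4GAT1, which primes that chain, read 1455, 1437 and 1515 in myoblasts and 3528, 2051 and 2660 in myotubes. The groups did not overlap, and the change of 0.79 ± 0.24 lay just outside the threshold (adjusted p = 0.0568). GMPPA, a subunit linked to the supply of GDP-mannose, had a change of 0.70 ± 0.25 (adjusted p = 0.0909). Without myoblast array 1 there were 3 called genes in this list, B4GAT1 (0.78, limma adjusted p = 0.0491) and GMPPA (0.87, adjusted p = 0.0269) among them, against 27.1% of all tested genes.

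Of 18 tested matrix genes, for laminins, collagens IV and VI, nidogens and other basement membrane or dystroglycan-binding proteins, 7 rose and none fell, against 5.39% of all tested genes that rose, with a median change of 0.73. They were LAMA4, COL6A1, NID2, LAMB2, COL6A2, LAMC1 and LAMB1. The other tested probe set of LAMC1 (200770_s_at, 0.86) was called too. Those of COL6A2 (213290_at, 0.42) and LAMB1 (201505_at, 0.19) were not. LAMA4 (laminin α4 chain) read 493, 453 and 542 in myoblasts and 1475, 1528 and 2366 in myotubes, a rise of 1.49 ± 0.30 (limma adjusted p = 0.0121). Its second tested probe set, 216081_at, had a change of 0.46 and was not called. COL6A1 rose by 1.45 ± 0.39 (adjusted p = 0.0406) in its brightest probe set, and its other 4 tested probe sets were not called. NID2 (nidogen 2, a linker of laminin and collagen IV) rose by 0.92 ± 0.22 (adjusted p = 0.0239). LAMA2, the laminin chain of the adult muscle basement membrane, read 526 ± 208 (SD, n = 3) in myoblasts and 1078 ± 159 in myotubes and did not pass (0.85 ± 0.34, adjusted p = 0.126). The called fibroblast markers given above moved the same way as these matrix genes, while PDGFRA changed by -0.30 and was not called. Of 7 smooth muscle markers 3 were called higher and 1 lower in myotubes, with summed signals of 21183 to 40209 in myoblasts and 66225 to 75126 in myotubes, and MYH11 did not exceed the control on any array. Of 8 osteoblast or chondrocyte markers SPP1 and MGP were called higher and none lower, with summed signals of 4030 to 9257 in myoblasts and 11299 to 14459 in myotubes, and IBSP did not exceed the control on any array. Each sum is led by the brightest probe sets of its list, such as TAGLN for smooth muscle (mean 13621 in myoblasts and 42384 in myotubes). The part of these lists in the result was not tested. With the laboratory series as a block 0 of the 18 were called, against 2.79% of all tested genes, and the median was 0.48. Leaving out myoblast array 1 gave 13 called genes, against 27.1% of all tested genes. The count was 1 when myoblast array 2, myoblast array 3 or myotube array 1 was left out and 2 when myotube array 2 was, in fits that called 4.18% to 5.18% of all tested genes. COL6A1 was lost in each of these 4 (limma adjusted p = 0.147 to 0.18) and NID2 in the first 3 (0.0682 to 0.0857), while LAMA4 was called without any 1 array.

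Genes that tie the membrane to the cytoskeleton or repair it were mixed. Of 27 tested 1 rose and 1 fell, against 5.39% and 6.73% of all tested genes, with a median change of 0.15. ANK2 (ankyrin B, which helps place dystrophin at the membrane) rose by 1.24 ± 0.34 (limma adjusted p = 0.0435), and its second tested probe set, 202920_at, rose by 1.24 as well. CAV2 (caveolin 2) fell by 1.25 on the log2 scale (SE 0.23, adjusted p = 0.00829), from 5643, 8905 and 9527 to 3181, 2731 and 3693. Of its other 2 tested probe sets, 203323_at fell by 1.04 and 213426_s_at did not pass. With the laboratory series as a block neither gene was called (0.96 and -0.79, adjusted p = 0.323 and 0.124). The count of 2 became 9 without myoblast array 1, against 27.1% of all tested genes. It was 1 without any one of myoblast arrays 2 and 3 and myotube arrays 1 and 2, against the same 4.18% to 5.18%. In the first 3 of these ANK2 was lost (limma adjusted p = 0.0732, 0.191 and 0.137). Without myotube array 2 neither probe set reported here passed (ANK2 0.163, CAV2 0.0541).

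**Figure D4:**
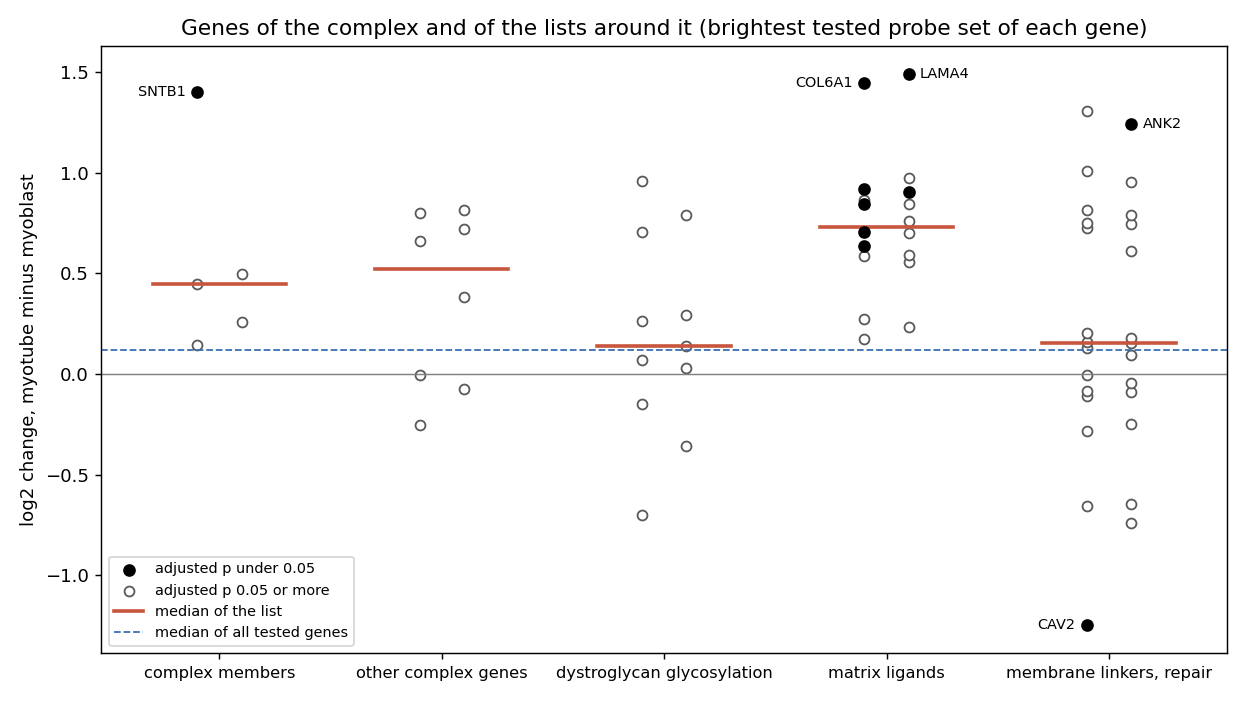
Log2 change from myoblasts to myotubes of each tested gene (its brightest tested probe set) in the complex and in 4 lists around it; filled points passed an adjusted p of 0.05, red bars are list medians and the dashed line is the median of all tested genes, 0.12. SNTB1 is the only filled point of the complex, and the matrix list, with 7, holds the most.

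Over the 6 arrays the genes most like the brightest SNTB1 probe set were ZCCHC24, CCR8 and LMBRD1 (Pearson's r of log2 values 0.995, 0.994 and 0.993 among 8160 other genes). Those most like DMD 203881_s_at were MPG, CST3 and SLC25A16 (0.976, 0.973 and 0.968). With 6 arrays in 2 groups that share processing, such values are high for many genes and are given as a description.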

How the data were processed

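The authors made the deposited intensity values with MAS5, per the submitters' processing notes (version not given), as linear signals, 1 for each probe set. The values between the 2 percent tails of each array averaged 1499.7 to 1499.8, as global scaling gives. Deposited run records gave chip lot, scan day and laboratory code as text; their numbers for the myoblast arrays differed from the titles, which were used. Symbols came from the platform annotation of 2016 (19065 probe sets with 1 symbol, 1043 with several, 2107 with none, 68 controls left out).

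Values were taken as log2(signal + 197), the 25th percentile of all signals, which makes folds of dim genes too small. A mean signal under the 40th percentile removed a probe set from testing. Stages were compared with limma 3.58.1 (R 4.3.3, statmod 1.5.0; lmFit and trended eBayes, two-sided) and Benjamini-Hochberg adjustment over all tested probe sets, threshold 0.05; ± after a change is its SE. A gene in a list is its brightest tested probe set. Named genes were all member probe sets and, per list, up to 3 called genes in each direction or the 2 with the smallest p, and the 3 genes most correlated with SNTB1 and DMD. UTRN, NOS1, CAV3, SSPN, LAMA2, LAMB1, LAMB2, LAMC1, COL6A2 and the marker genes fall outside that rule and were chosen after their values were seen. Members and lists were chosen with earlier results of these data known. The fit was also run on simulated arrays with independent noise and no lot, scan day or series effect, so that run cannot speak to those effects here. Figures were drawn with matplotlib 3.10.9. Array number limits the precision. Whether the replicate numbers pair the arrays was not settled, and the main fit used no pairing. Deviations of same-numbered arrays correlated at 0.25, -0.184 and 0.38, and those of other pairs at -0.442 to 0.416.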

Additional observations from a re-analysis of the deposited data

How the results depend on the processing

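Settings other than the main one were 20, 1 of them, the replicate block by run-record numbers, chosen after seeing the data. Of 13329 probe sets 1510 were called; this became 917 with eBayes without trend, 401 with chip lot as a random block, 338 with the laboratory series as a block, 174 in the first series alone, 573 with myoblast arrays 2 and 3 averaged, and 493 to 3468 without 1 array. Called member probe sets and genes, 1 each, became 0 with a filter at the 60th percentile (which leaves SNTB1 untested), quantile normalization, lot, series block, first series and averaging, and 0 to 1 without 1 array; member genes became 2 when tested probe sets were averaged per gene. SNTB1 was lost in these settings at limma adjusted p-values of 0.052 to 0.27. Whether the numbers shared by titles pair the arrays was not settled. With the replicate block 2314 probe sets, 2 member probe sets, 1 other complex gene, 2 glycosylation genes and 4 linker genes were called. With run-record numbers as the block these counts were 515, 0, 0, 0 and 1, with 0 matrix genes. Other complex genes (0) were 0 to 3 without 1 array. Glycosylation genes (0) were 1 with the filter at the 60th percentile or the mean of probe sets, and 0 to 3 without 1 array. Matrix genes (7) were 4 without a filter, 2 without trend, 0 with lot, series block or first series, 1 with averaging, and 1 to 13 without 1 array. Linker genes (2) were 1 without a filter, without trend, with lot or with averaging, 0 with series block or first series, and 1 to 9 without 1 array. The shift of SNTB1 against SNTB2 was 0.58 with a pseudocount at the median signal, 0.43 with the mean of probe sets, and 0.71 to 1.14 without 1 array; chip lot, filter and eBayes settings were not run for it. Signs turned for DTNA 205741_s_at (-0.075 with quantile normalization, -0.28 with series block or first series) and DTNA 210736_x_at (-0.022 with series block or first series), neither called. The first series alone has 1 myoblast array, whose spread is taken to equal that of the myotubes. Signals near the unspiked controls limit 6 of 9 untested member probe sets, which never exceeded them. The cause of these differences was not tested.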
